A study of Homo sapiens and Mus musculus with 13 samples.

Results

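The E14-only R-loop peaks are the DRIP-seq peaks of mouse E14 embryonic stem cells at which neither list from 3T3 fibroblasts had a peak. They were chosen by overlap: a peak of the E14 list had to carry a class name of the authors that starts with Noisy, lie on chromosomes 1 to 19 (mm9) and share not even 1 bp with a peak of the 3T3 DRIP-seq or the 3T3 DRIPc-seq list. Of the 49022 Noisy peaks on these chromosomes, 21225 met the rule, or 43.3% (95% interval 42.9 to 43.7%), out of 53859 peaks in the whole E14 list. The other 27797 Noisy peaks touched a 3T3 peak and are called shared peaks: 12452 touched the DRIP-seq list alone, 3159 the DRIPc-seq list alone and 12186 both. The overlap itself was what selected the peaks, so the 43.3% describes the rule, and every comparison of E14-only with shared peaks is a description without a test.

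E14 is an embryonic stem cell line and 3T3 an embryonic fibroblast line, and each gave 1 DRIP-seq library; the labels name no genotype, treatment or age for either. DNA was cut with HindIII, EcoRI, BsrGI, XbaI and SspI in all 3 mouse libraries. The third is a 3T3 DRIPc-seq library, in which the RNA strand of the hybrids is read. Its list gives each strand separately. The deposited list is named for RNase A and its tracks for RA, while the sample's labels name no RNase, so whether that material was RNase A treated is not known here. On the 19 autosomes the lists covered 126.7 Mb in E14 DRIP-seq, 121.0 Mb in 3T3 DRIP-seq and 84.2 Mb in 3T3 DRIPc-seq. With 1 list per library there was no replicate check, and the cell lines cannot be told apart from the libraries. Positions come without read counts, so the depth is unknown, and "E14-only" means called in E14 and not called in 3T3. Intervals at the 95% level are Clopper-Pearson (exact) for shares and taken from order statistics for medians. They cover counting error only, and neighbouring peaks are not independent.

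R-loops form where nascent RNA pairs back with its DNA template and leaves the other DNA strand single. They are found along transcribed genes, and often at CpG-rich promoters and at the ends of genes, so a map of R-loops follows which genes a cell transcribes. Embryonic stem cells and fibroblasts transcribe many genes in common and differ in those that hold pluripotency or build the extracellular matrix. DRIP-seq recovers hybrids on restriction fragments, which limits how finely a peak can be placed. Whether the E14-only peaks lie at pluripotency genes was not analysed here, because no mm9 annotation or genome was used; regions are given by position only, and no sequence is shown. The lists were read as BED, with starts counted from 0, and positions are printed counted from 1. Whether the authors counted starts from 0 or from 1 is not stated. If from 1, each printed start is 1 too high, lengths are 1 bp greater and distances 1 bp smaller.

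E14-only peaks were shorter than shared peaks. Their median length was 1327 bp (1307 to 1347 bp), with quartiles at 715 and 2376 bp, against a median of 2211 bp (2186 to 2239 bp) and quartiles at 1211 and 3833 bp for shared peaks. Only 84 E14-only peaks, 0.396% (0.316 to 0.490%), were over 10 kb long, against 671 shared peaks, 2.41% (2.24 to 2.60%). Together the E14-only peaks covered 37.9 Mb, 31.5% of the length covered by all Noisy peaks, although they were 43.3% of the peaks. Shared peaks that touched both 3T3 lists were the longest, with a median of 2839 bp, and those that touched the DRIPc-seq list alone had a median of 1484 bp, the nearest to that of E14-only peaks.

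The E14-only share fell with every decile of peak length. It was 66.5% (65.2 to 67.9%) among peaks of 100 to 532 bp and 44.5% (43.1 to 45.9%) in the fifth decile, from 1409 to 1783 bp. In the longest decile, from 5119 bp upward, it was 16.9% (15.8 to 17.9%). A longer peak has more bases with which to touch another peak, and how much of this gradient follows from that was not tested.

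**Figure D1:**
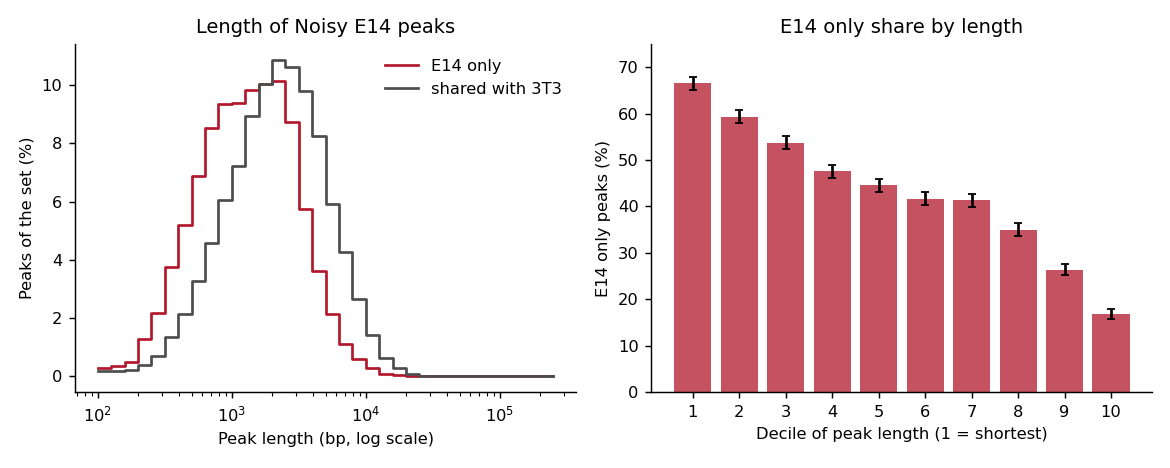
Left: length of E14-only (red) and shared (grey) Noisy peaks, as a percentage of each set in bins of the log10 length, with length in bp on a log axis. Right: percentage of Noisy peaks that are E14-only in each decile of length, with exact 95% intervals; the bars fall from 66.5% for the shortest to 16.9% for the longest decile.

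The 10 longest E14-only peaks ran from 14.8 to 26.3 kb. All 10 were of the class Noisy_MedPeak, to which 87.9% of all E14-only peaks belonged. The longest lay at chr11:64821735-64848002 (26.3 kb), only 1.40 kb from a shared peak and 3.84 kb from the nearest 3T3 peak. The second, at chr1:134478813-134497683 (18.9 kb), was 68.3 kb from any 3T3 peak and stood in a row of 24 E14-only peaks. The third was at chr7:108827897-108846636 (18.7 kb). The fourth, at chr4:125325734-125343387 (17.7 kb), was the most remote of these, with 380.0 kb to the nearest shared peak and a row of 31 E14-only peaks around it. Those at chr15:58888584-58905175 (16.6 kb) and at chr5:116352005-116368366 (16.4 kb) were 110.0 and 91.1 kb from a shared peak.

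The remaining 4 of the 10 lay at most 11.8 kb from a shared peak. The distances were 6.92 kb for the peak at chr16:22404443-22420936, 11.8 kb for that at chr7:28148342-28163519 and 6.44 kb for that at chr17:17154924-17169768. The peak at chr5:120627260-120642981 started or ended 1 bp from a shared peak, and a 3T3 peak lay 273 bp away. Long E14-only peaks were thus found both in stretches without any shared peak and directly beside one. The longest shared peak, for comparison, spanned 299.9 kb at chr12:22162241-22462114. It stood far above the next longest shared peaks, of 87.8 and 38.4 kb.

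The 2 Noisy classes differed in how often they were E14-only. Of 38833 Noisy_MedPeak peaks, 48.0% (47.5 to 48.5%) had no 3T3 overlap, and of 10189 Noisy_BroadPeak peaks, 25.3% (24.5 to 26.2%). Noisy_BroadPeak thus made up 12.1% (11.7 to 12.6%) of E14-only peaks and 27.4% (26.9 to 27.9%) of shared peaks. The sources used here do not say what the class names stand for. Weighted to the length deciles of all Noisy peaks, the shares were 47.2% for Noisy_MedPeak and 28.6% for Noisy_BroadPeak, so the gap was present at like lengths. It was narrow in the shortest decile, with 67.4% (65.9 to 68.8%) against 61.7% (58.0 to 65.2%), and in the longest decile the shares were 20.9% (19.6 to 22.3%) against 7.84% (6.54 to 9.31%).

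E14-only peaks were spread over all 19 autosomes, in unequal shares. Chromosome 13 had the highest share, 57.7% (55.5 to 59.8%, 1198 of 2076 Noisy peaks), followed by chromosome 14 with 56.8% (54.7 to 59.0%, 1213 of 2134) and chromosome 18 with 50.3% (47.7 to 53.0%, 705 of 1401). The lowest were chromosome 19 with 33.8% (31.3 to 36.4%, 460 of 1361), chromosome 15 with 34.9% (32.9 to 36.9%, 758 of 2172) and chromosome 17 with 35.6% (33.6 to 37.6%, 828 of 2328). The intervals of the 3 highest did not meet those of the 3 lowest, but these chromosomes were picked by the share itself, so this is no test. Weighting to a common mix of lengths left chromosome 13 at 56.0%, chromosome 14 at 55.5% and chromosome 19 at 33.5%.

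Chromosomes rich in E14-only peaks were also those where the 3T3 DRIP-seq list was thin. Per Noisy E14 peak, the 3T3 DRIP-seq list held 0.532 peaks on chromosome 13 and 0.516 on chromosome 14, against 0.885 on chromosome 19. Over the 19 chromosomes, the E14-only share and this ratio had a Spearman rho of -0.912. This is a description, since the rule ties both to the same 3T3 list.

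**Figure D2:**
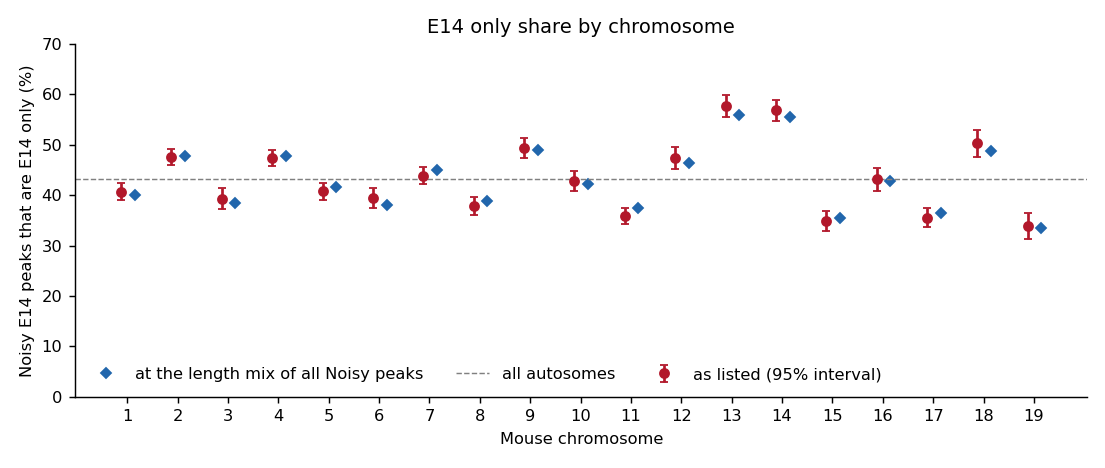
Percentage of Noisy E14 peaks that are E14-only on each of the 19 autosomes (red points, exact 95% intervals) and after weighting to the length deciles of all Noisy peaks (blue diamonds, no interval). The dashed line is the share on all autosomes, 43.3%; chromosomes 13 and 14 stand highest, at 57.7% and 56.8%, and chromosome 19 lowest, at 33.8%.

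Within chromosomes the share varied more widely. Among 252 windows of 10 Mb with at least 20 Noisy peaks, the median share was 44.4%, and 83 windows were above 50%. The highest were chromosome 1 from 110 to 120 Mb, where all 21 Noisy peaks were E14-only, chromosome 14 from 0 to 10 Mb with 216 of 236 (91.5%, 87.2 to 94.7%) and chromosome 14 from 80 to 90 Mb with 29 of 32 (90.6%, 74.98 to 98.02%). The lowest were chromosome 8 from 0 to 10 Mb with 14 of 67 (20.9%, 11.9 to 32.6%), chromosome 15 from 20 to 30 Mb with 20 of 87 (23.0%, 14.6 to 33.2%) and chromosome 8 from 70 to 80 Mb with 79 of 337 (23.4%, 19.02 to 28.3%). In the last of these the 3T3 DRIP-seq list held 319 peaks, close to the number in E14, whereas in the window on chromosome 1 it held 0 and the DRIPc-seq list 10. Without its first 10 Mb, chromosome 14 still had a share of 52.5% (50.3 to 54.8%), and chromosome 13 without the window from 60 to 70 Mb had 54.6% (52.3 to 57.0%).

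Regions with few Noisy peaks had the highest E14-only shares. In windows of 1 Mb with 1 to 4 Noisy peaks, 81.8% (78.9 to 84.4%) of 791 peaks were E14-only, in those with 10 to 19 it was 47.7% (46.4 to 49.0%), and in those with 40 to 79 it was 39.3% (38.6 to 39.98%). Per Noisy peak, the 3T3 DRIP-seq list held 1.03, 0.821 and 0.659 peaks in these windows. Across these window classes a higher share thus went with more 3T3 DRIP-seq peaks per Noisy peak, the reverse of the order among chromosomes. An E14-only peak lay a median of 2.77 kb (2.69 to 2.84 kb) from the nearest other Noisy peak, a shared peak 1.18 kb (1.15 to 1.21 kb), and 7.83% of E14-only against 1.32% of shared peaks had no other Noisy peak within 50 kb. By distance from the first peak of the chromosome, and outside chromosome 14, the share was 40.2% (38.1 to 42.4%) in the first 5 Mb, 45.9% (44.1 to 47.7%) at 10 to 20 Mb and 42.7% (41.9 to 43.6%) beyond 100 Mb, with no steady rise or fall.

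E14-only peaks followed each other along the chromosome. After an E14-only peak, the next Noisy peak was also E14-only in 68.5% (67.8 to 69.1%) of cases, and after a shared peak in 24.1% (23.6 to 24.6%). When the next peak lay at most 1 kb but over 1 bp away, the shares were 74.3% (72.6 to 76.0%) and 10.9% (10.1 to 11.8%). At 10 to 100 kb they were 64.4% (63.2 to 65.6%) and 37.2% (36.0 to 38.4%), and beyond 100 kb they were 65.9% (64.0 to 67.8%) and 56.1% (53.5 to 58.7%). After an E14-only peak the share was lower beyond 10 kb than within 1 kb, whereas after a shared peak it rose from one distance class to the next, and the gap between them narrowed. Neighbouring shared peaks can touch the same 3T3 region, as 46.5% of 21096 such pairs did, and its part in these shares was not tested.

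The pattern was present at every length. By quartile of the first peak's length, from shortest to longest, the next peak was E14-only in 64.5, 67.6, 71.6 and 74.9% of cases after an E14-only peak, and in 23.3, 23.9, 24.4 and 24.4% after a shared peak. Where both neighbours belonged to the shortest quartile, the shares were 79.2% (77.4 to 80.8%) and 36.5% (33.9 to 39.1%), and where both belonged to the longest, 61.6% (58.0 to 65.1%) and 10.04% (8.98 to 11.2%).

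Counting unbroken rows of E14-only peaks among the Noisy peaks gave 6706 runs, with a median of 2 and a mean of 3.17 peaks. Single peaks between shared neighbours or chromosome ends made up 3012 of them, which is 14.2% of all E14-only peaks. The 1254 runs of 5 or more held 55.6% of E14-only peaks, and among these the 370 runs of 10 or more held 29.0% and the 87 runs of 20 or more 12.02% of all E14-only peaks. Shared peaks formed 6701 runs with a mean of 4.15, and 66.5% of them stood in runs of 5 or more. The largest run of shared peaks had 52 members, and 7 runs of E14-only peaks were at least that large. E14-only peaks in runs were longer than single ones, which had a median of 1100 bp (1056 to 1143 bp). The median was 1521 bp (1458 to 1582 bp) in runs of 10 to 19 and 1487 bp (1418 to 1549 bp) in runs of 20 or more. Shared peaks showed no such order. Their medians were 2273 bp (2197 to 2361 bp) for single peaks, 2210 bp (2159 to 2268 bp) in runs of 10 to 19 and 2279 bp (2185 to 2388 bp) in runs of 20 or more. Whether the overlap rule itself shapes this contrast was not tested.

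**Figure D3:**
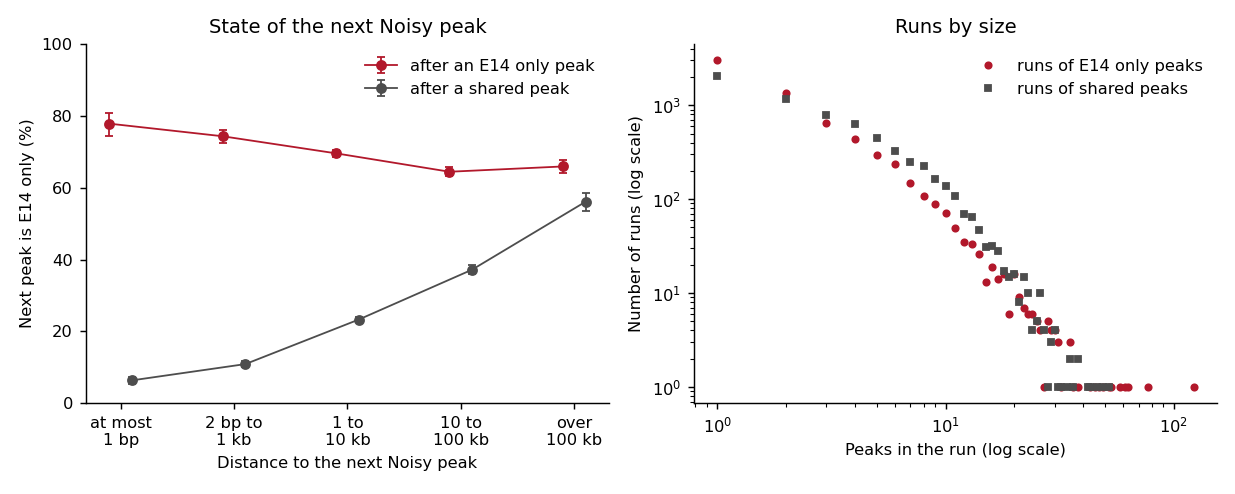
Left: percentage of Noisy peaks whose next Noisy peak is E14-only, after an E14-only (red) or a shared (grey) peak, by distance to the next peak, with exact 95% intervals; the shares are 77.8% and 6.38% at most 1 bp apart and 65.9% and 56.1% beyond 100 kb. Right: number of runs by number of peaks, both axes on log scales; runs of E14-only peaks reach 122 and those of shared peaks 52.

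The run with the most peaks held 122 E14-only peaks at chr13:65751797-66961942 (1.21 Mb). No 3T3 DRIP-seq peak and 1 DRIPc-seq peak lay in this stretch. Its peaks had a median length of 1129 bp, covered 14.8% of the stretch and came at 10.1 per 100 kb. No 2 neighbours in it were over 50 kb apart, so it was also the largest run with that limit. All 102 Noisy peaks between 66 and 67 Mb of this chromosome were E14-only.

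The first part of chromosome 14 held 3 of the 10 largest runs. They comprised 61 peaks at chr14:3019857-4580412, 77 peaks at chr14:4608458-7462612 and 47 peaks at chr14:7831525-8720608. From the first to the last of these positions (5.70 Mb), with the peaks between the runs counted too, 201 of 204 Noisy peaks were E14-only, and 5 peaks of the 3T3 DRIP-seq list and 3 of its DRIPc-seq counterpart were found. The run of 61 began with the first Noisy peak of the chromosome. Peaks here were thinner than on chromosome 13, at 3.91 per 100 kb in the run of 61 and 2.70 in the run of 77.

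The third largest run, with 63 peaks, was at chr4:145204355-145738295. It spanned 533.9 kb with 11.8 peaks per 100 kb, had no 3T3 DRIP-seq peak and 1 DRIPc-seq peak in its span, and ended 388 bp before a shared peak. In 27 of its 63 peaks the list carries a minus sign, whose meaning is not stated. The fifth, with 58 peaks, was at chr17:30748551-31548967 and began 1.53 kb after a shared peak. That stretch held no 3T3 DRIP-seq and 1 DRIPc-seq peak, and its peaks had a median length of 1971 bp.

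**Figure D4:**
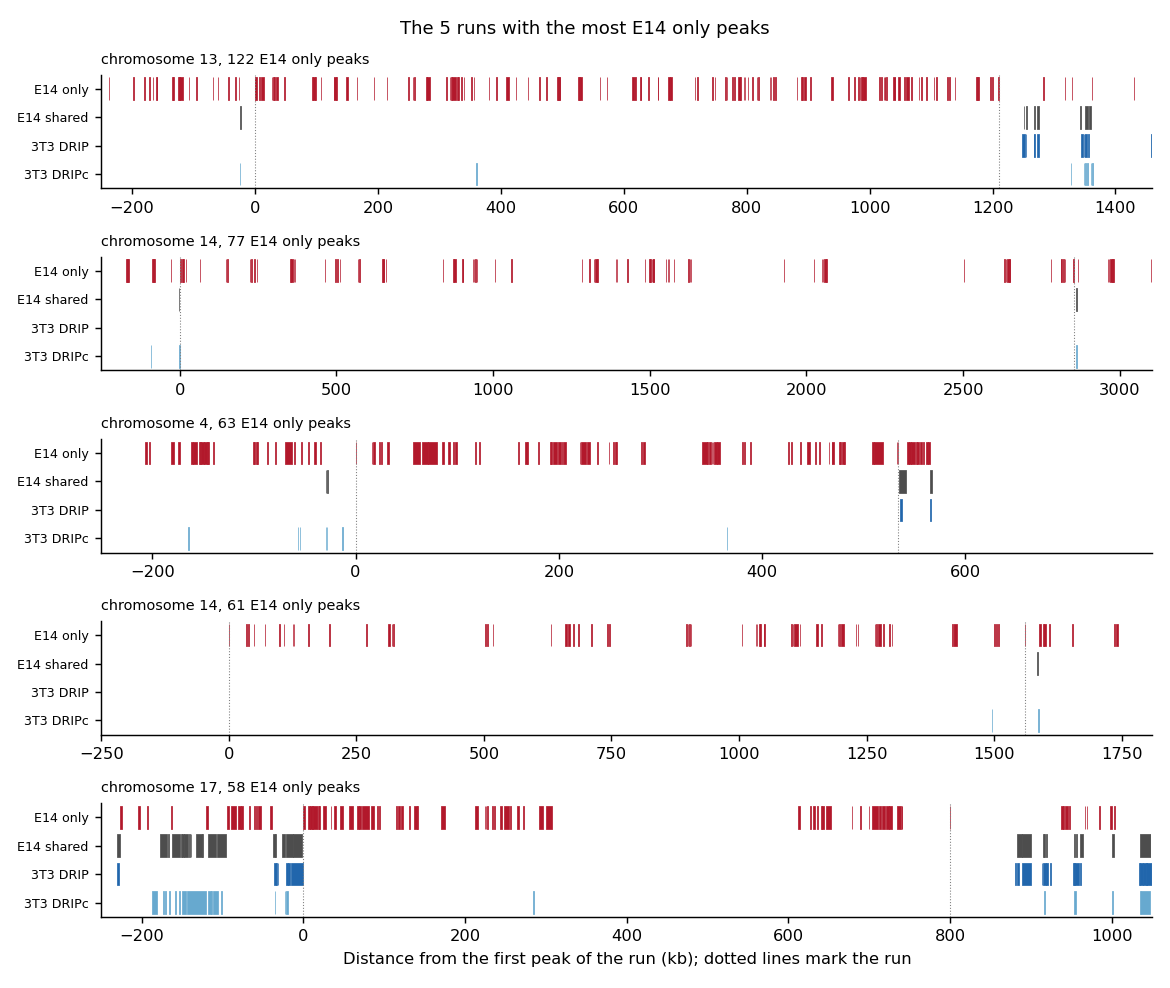
Peaks in and 250 kb around each of the 5 largest runs, drawn to scale as distance in kb from the first peak of the run, with rows for E14-only peaks, shared E14 peaks, 3T3 DRIP-seq and 3T3 DRIPc-seq. The runs on chromosomes 13, 14, 4, 14 and 17 hold 122, 77, 63, 61 and 58 E14-only peaks and no 3T3 DRIP-seq peak.

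When neighbours over 50 kb apart ended a run, the next largest were dense clusters. The second had 44 peaks at chr8:90186097-90482560, where E14-only peaks covered 54.1% of 296.5 kb and no peak of either 3T3 list was found. The third, 39 peaks at chr17:30748551-31056236, formed the first part of the run of 58. A pair of clusters of 38 peaks each followed, at chr4:104039193-104422915 and chr4:146475393-146705359, the latter with 16.5 peaks per 100 kb. Neither held a peak of a 3T3 list. Across the 41 runs of 20 or more under this limit, the median was 13.99 peaks per 100 kb, and 53 such runs of shared peaks had 14.2. The median cover was 31.1% for E14-only and 42.2% for shared runs.

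Long runs were found on all 19 autosomes. Of the 87 runs of 20 or more E14-only peaks, 12 were on chromosome 4, 11 on chromosome 14 and 10 on chromosome 7, with 1 each on chromosomes 15, 16 and 19. Chromosomes 4, 14 and 7 held 1686, 1213 and 1499 E14-only peaks in all, against 758, 749 and 460 on chromosomes 15, 16 and 19. The median span of the 87 runs was 796.8 kb. In 53 of the 87 no 3T3 DRIP-seq peak lay anywhere in the span, and in 30 neither 3T3 list had a peak. The other spans held 3T3 peaks that touched no Noisy E14 peak. The run at chr14:106313660-119268858 was of this kind: its 53 E14-only peaks were strewn over 12.96 Mb, among 15 DRIP-seq and 31 DRIPc-seq peaks of 3T3.

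The stretch at chr4:103935580-104972705 showed both lines side by side. It held 45 E14-only peaks and no shared Noisy peak, with 13 DRIP-seq and 18 DRIPc-seq peaks of 3T3 in between. Among 1408 windows of 1 Mb with at least 10 Noisy peaks, 27 held E14-only peaks alone, 579 in all, and 5 held none. Of the 27 windows, 12 had no 3T3 peak in either list and 8 had a 3T3 DRIP-seq peak.

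A typical E14-only peak stood well apart from the nearest shared peak. The median distance between facing edges was 22.5 kb (21.8 to 23.3 kb), with quartiles at 5.42 and 93.9 kb, whereas shared peaks lay a median of 1.45 kb (1.41 to 1.49 kb) from the next nearest shared peak. The 22.5 kb was measured between the sets and the 1.45 kb within one. From an E14-only peak to the nearest other E14-only peak the median was 4.88 kb (4.70 to 5.03 kb). Within 10 kb of a shared peak were 34.8% (34.2 to 35.5%) of E14-only peaks, within 100 kb 75.9% (75.3 to 76.5%), and 648 peaks, 3.05% (2.83 to 3.29%), were over 1 Mb away. Single E14-only peaks were nearer, at a median of 2.92 kb (2.76 to 3.10 kb). By definition these have a shared peak or a chromosome end on each side, so the shorter distance can follow from that. E14-only peaks of the class Noisy_BroadPeak lay a median of 25.6 kb (23.1 to 29.2 kb) away and those of Noisy_MedPeak 22.2 kb (21.3 to 22.9 kb). The median distance to the nearest 3T3 peak of either list was smaller than that to a shared E14 peak, at 15.3 kb (14.8 to 15.8 kb). Every shared peak touches a 3T3 peak, so a smaller median can follow from the rule. By chromosome the median distance to a shared peak was 42.0 kb (33.0 to 54.5 kb) on chromosome 14, 32.6 kb (27.7 to 37.8 kb) on chromosome 13 and 12.1 kb (10.5 to 14.1 kb) on chromosome 11.

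Beyond 1 kb, E14-only peaks were longer the farther they lay from a shared peak. The median length was 1232 bp at 1 to 10 kb from a shared peak, 1299 bp at 10 to 100 kb, 1497 bp at 100 kb to 1 Mb and 1767 bp beyond 1 Mb. The 302 E14-only peaks at 1 bp from a shared peak went against this order, with a median of 1731 bp. Among shared peaks the order was opposite over most of the range, with medians of 2082 bp at 1 to 10 kb from the nearest other shared peak, 1844 bp at 10 to 100 kb and 1525 bp at 100 kb to 1 Mb. Near a 3T3 peak a long E14 peak can touch it more easily and then counts as shared. The part of this in both orders was not tested. Of the 5 E14-only peaks farthest from a shared peak, 4 lay on chromosome 14 between 111420770 and 112832258, at 5122 to 6453 kb, and all 4 belonged to the run of 53. The other, at chr15:18244097-18246602, was 5377 kb from a shared peak but only 3.71 kb from a 3T3 peak.

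**Figure D5:**
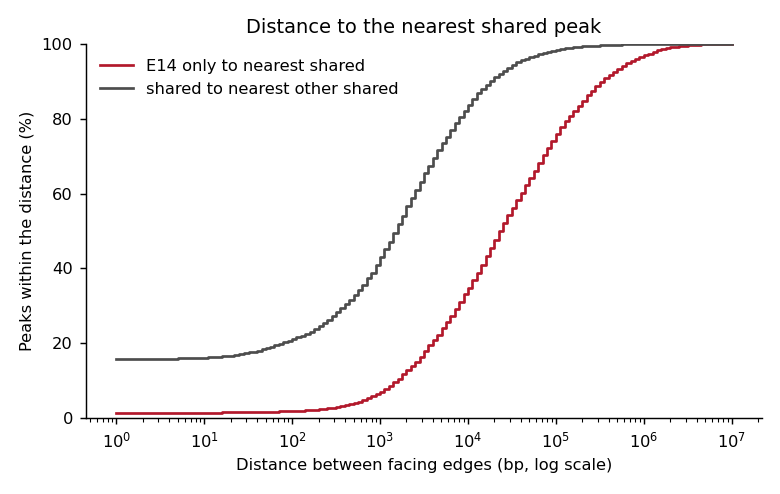
Percentage of E14-only peaks (red) within a given distance of the nearest shared peak, and of shared peaks (grey) within that distance of the nearest other shared peak, with distance in bp on a log axis. The red curve lies to the right, with medians of 22.5 kb and 1.45 kb.

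Some E14-only peaks lay 1 bp from a shared peak. In 3167 pairs of Noisy neighbours the listed start of the second was 1 above the listed end of the first, which leaves 1 base between them if starts count from 0 and none if they count from 1, and all 3167 paired a Noisy_MedPeak with a Noisy_BroadPeak. An E14-only peak was 1 bp from a shared peak in 302 cases (1.42%, 1.27 to 1.59%), against 15.6% (15.1 to 16.0%) of shared peaks at 1 bp from another. Joining such neighbours gave 45824 regions, of which 20398 (44.5%) held E14-only peaks alone. Another 292 joined E14-only with shared peaks and contained 320 E14-only peaks, 1.51% of all. The longest joined region without a 3T3 peak was at chr15:58878830-58905175 (26346 bp, 3 peaks), followed by the single peak of 26268 bp on chromosome 11 described above.

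At the threshold of the rule few peaks were decided by a few bases. The nearest 3T3 peak was within 10 bp of 36 E14-only peaks and within 100 bp of 258 (1.22%). The 4 closest E14-only peaks, at a distance of 0, ended where a 3T3 peak began or began where one ended. With starts counted from 1 these 4 would each touch a 3T3 peak and be shared, leaving 21221 E14-only peaks. They lay at chr3:95554197-95555176, chr4:117691593-117692705, chr13:114635381-114637904 and chr19:38943001-38943905. Next came the peak at chr15:67921808-67922869, at 1 bp. On the other side, 13 shared peaks had at most 10 bp covered by 3T3 peaks. The smallest overlaps were 1 bp at chr16:30937645-30938061, 2 bp at chr13:30901219-30901539 and at chr19:16683979-16685485, 5 bp at chr5:107120774-107121068 and 6 bp at chr3:115715324-115715950. In 4331 shared peaks, 15.6%, less than 50% of the length was covered.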

How the data were processed

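The deposited files used are 3 mouse peak lists. As deposited by the authors they give each peak's chromosome, start and end (mm9); the score of the E14 list is 0 in every row and was not used. Per the submitters' processing notes, Bismark 0.7.7, BWA 0.6.1 and TopHat2 2.0.5 were among the tools and mm9 among the builds, with no roles stated. The sources used here do not give the peak caller, its threshold or any control. The human lists were not used here.

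Each E14 Noisy peak on chromosomes 1 to 19 was compared with both 3T3 lists by overlap of at least 1 bp, strand ignored and starts read as counted from 0; bedtools 2.31.1 gave the same 21225 peaks. Distance is the difference between facing edges. A run is a row of E14-only peaks with no shared Noisy peak between them. Windows of 1 and 10 Mb were assigned by peak centre. Named regions were the 10 longest peaks, the 5 largest runs with and without a 50 kb limit, the 5 most remote peaks, the 5 at each side of the threshold, and the 3 highest and lowest chromosomes and windows. Other regions, such as the first part of chromosome 14 and chr4:103935580-104972705, were added after their values were seen. The members and comparisons were chosen with earlier results of these data known. The functions were tested on simulated lists. Calculations ran in Python 3.11.15 with scipy 1.17.1, pandas 2.3.3, numpy 2.4.6 and matplotlib 3.10.9.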

Additional observations from a re-analysis of the deposited data

How the results depend on the processing

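The values reported were an E14-only share of 43.3%, median lengths of 1327 bp for E14-only and 2211 bp for shared peaks, an E14-only next peak in 68.5% of cases after an E14-only and 24.1% after a shared peak, a median distance of 22463 bp to a shared peak, 34.8% within 10 kb, and a longest run of 122. Where at least 50% of a peak had to be covered, they were, in this order, 52.1%, 1511 bp, 2131 bp, 72.8%, 29.7%, 25575 bp and 33.0%. Where a 3T3 peak within 1 kb counted as shared, they were 39.1%, 1353 bp, 2121 bp, 69.3%, 19.7%, 25819 bp and 31.4%. With the 3T3 DRIP-seq list alone, the share was 49.7%, shared peaks had a median of 2316 bp, the next-peak shares were 71.5% and 28.2%, the distance was 24458 bp and 33.8% were within 10 kb. With the longest 50% of each list, lengths were 2766 and 3573 bp, next-peak shares 65.9% and 26.3%, the distance 39661 bp and the share within 10 kb 25.5%. Merging peaks within 1 kb gave 46.1%, 1410 bp, 2692 bp, 65.9%, 29.2%, 26359 bp and 31.1%. All 4 classes together gave a share of 45.3%, 70.6% after an E14-only peak, 28770 bp and 32.0%. Noisy_BroadPeak alone gave 25.3%, 1425 bp, 2506 bp, 48.3%, 17.6%, 66945 bp, 18.5% and a longest run of 57. Noisy_MedPeak alone gave 48.0%, a shared length of 2096 bp, 28.9% after a shared peak, 29017 bp and 28.6%. In alternatives chosen after seeing the data, joining peaks 1 bp apart gave a share of 44.5%, a shared length of 2301 bp and 25.8% after a shared peak, and leaving out rows with a minus sign, or reading starts as counted from 1, kept all 8 values within their intervals. Causes of these shifts were not tested. The single-class and longest-peak settings also compared fewer peaks, and the part of that in the shifts was not tested either.

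In all 11 alternatives E14-only peaks were the shorter set and the next-peak share was higher after an E14-only than after a shared peak. Values not listed stayed within the interval of the reported value or, for the longest run, within 1.5 times of 122. The longest run was chr13:65751797-66961942 in 6 of the 11 alternatives, with 86 to 122 peaks or merged regions (its start 1 lower where starts count from 1). It was at chr14:3019857-7821651 with the 3T3 DRIP-seq list alone (156 peaks) and at chr4:146035289-147183909 when 50% had to be covered (165 peaks). With the longest 50% of each list it was at chr4:144687658-147183909 and with Noisy_MedPeak alone at chr14:4608458-7821651 (88 peaks each). Neither a 50 kb limit nor Sparse peaks as breaks changed the 122. No paired analysis was possible because each cell line has 1 list per assay. Unknown depth limits every share, since a peak below the authors' threshold is not listed.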

Other observations

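In the E14 list, 191 Noisy autosomal rows carry a minus sign in a column that is plus in all the others, and 124 of them, 64.9% (57.7 to 71.7%), were E14-only, against 43.3% of all Noisy peaks. The assay does not read strand, and the sources used here do not say what the sign means. They stood in few places: 67 on chromosome 10 between 3134227 and 6405184, with 45 E14-only, 48 on chromosome 4 between 130141031 and 146387894, with 46 E14-only, and 43 on chromosome 12 between 22687136 and 23416919, with 22 E14-only. The shares of all Noisy peaks in the windows there, rows with the sign included, also exceeded 43.3%. They were 49.6% on chromosome 10 from 0 to 10 Mb and 59.5% on chromosome 12 from 20 to 30 Mb. On chromosome 4 they were 50.4% from 130 to 140 Mb and 68.5% from 140 to 150 Mb. The window on chromosome 10 held 137 Noisy peaks, 68 of them E14-only. Its 67 rows with the sign gave 45 of the 68, and its other rows had a share below 43.3%. How much of the 64.9% follows from location was not tested. Of the 63 peaks in the chromosome 4 run from 145204355, 27 carried the sign. The other 33 lay on chromosomes 1, 2, 8 and 17, with 11 E14-only.

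Among the E14 peaks of the Sparse classes, which the rule leaves out, 2421 of 3224 on the autosomes, 75.1% (73.6 to 76.6%), touched no peak of either 3T3 list.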
